A study of Mus musculus with 16 samples.

Results

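Broad domains of H3K27 acetylation (H3K27ac) that were called in every H3K27ac list of a mouse embryonic stem cell (mESC) series are described here. The peaks of the 4 H3K27ac lists were merged into 36449 regions, of which 2913 held a peak of all 4 lists. The 699 regions with a mean of 3000 or more called bases over the 4 lists are the broad domains, where called bases are the bases of a region that the peaks of a list cover. The other 2214 regions called in all 4 lists are named narrower shared regions below. The width of H3K27ac thus chose the domains, so their H3K27ac widths are given as a description with no test. Just inside the threshold lay the domains near Hspa8, at Mov10 and near Slc4a7, with means of 3003.25, 3001.25 and 3000.5 bases. Just outside it lay the regions at Syndig1, near Zic5 and at Ncoa7, with means of 2996.75, 2990.75 and 2989.75 bases.

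The series asked how histone marks differ in mESCs after knockout of Mettl14. METTL14 works with METTL3 to write N6-methyladenosine (m6A) on RNA. ChIP-seq, the sequencing of DNA precipitated with an antibody to a chromatin mark, covered H3K27ac, H3K4me3 and H3K27me3 in Mettl14 CKO mESCs and in Mettl14 Control mESCs, with 2 lists per mark and genotype. Cells of both genotypes were of the C57BL/6 strain and grew in DMEM with FBS, LIF, the GSK3 inhibitor CHIR99021 and the MEK inhibitor PD0325901. The sources used here give no allele, inducing agent, number of clones or time after gene loss, and do not say whether lists of a genotype came from separate cultures. Permutation p-values therefore measure the spread between these lists, which may be technical, and with 2 lists a side they cannot fall below 0.333. The lists hold peak positions only, so read depth is unknown, and a wider call from more cells that carry a mark cannot be told apart from one with more mark per cell.

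H3K27ac is laid down by acetyltransferases such as p300 and CBP at active enhancers and promoters. Long stretches of dense H3K27ac are the usual sign of super-enhancers, groups of enhancers that bind the master transcription factors of a cell type in bulk and lie near the genes that define it. In mESCs these factors are OCT4 (Pou5f1), SOX2 and NANOG with KLF4 and ESRRB, and the miR-290 cluster is one of the best known super-enhancer targets. H3K4me3 marks active and poised promoters, and H3K27me3 is the mark of Polycomb repressive complex PRC2. The domains were defined by peak width and not by ranked signal, so they resemble super-enhancers in width only.

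The H3K27ac lists held 15271 and 15058 peaks in CKO cells and 15541 and 13520 peaks in Control cells. The H3K4me3 lists differed far more in length, with 8131 and 8055 peaks in CKO cells and 2859 and 2431 in Control cells. The H3K27me3 lists held 11349 and 11446 peaks in CKO cells and 6312 and 7203 in Control cells. For H3K27ac the labels name an antibody against H3K4me3. The sample titles say H3K27ac and were followed, and which antibody was used could not be checked. Within 1 kb of either end of Mettl14 the H3K27ac lists called 629 and 627 bases in CKO cells and 501 and 0 bases in Control cells. The H3K4me3 lists called 1074 and 1295 bases there in CKO cells and 0 and 0 in Control cells. No broad domain touched the gene. A peak there does not show whether the protein was lost. Of 8 mESC marker genes, 6 and 7 had H3K27ac within 1 kb of their start in the CKO lists and 5 and 5 in the Control lists. None of 8 fibroblast (feeder) markers did in any list, and trophectoderm or primitive endoderm markers reached at most 1 of 6 in a list.

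The widest domain, at chr7:3199189-3220848 (mm10), covered the genes of the miR-290 to miR-295 cluster and the non-coding gene D7Ertd143e and touched the end of Nlrp12. This cluster makes the most abundant microRNAs of mESCs. The mature arms that follow are shown because they lie in the last part of this domain, at or next to its H3K4me3, with the seed (bases 2 to 8) in capitals, 5′ to 3′, from RefSeq (GRCm38.p6).
miR-291a-3p: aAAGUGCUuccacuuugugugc
miR-294-3p: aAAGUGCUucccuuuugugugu
miR-295-3p: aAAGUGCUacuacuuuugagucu
miR-290a-3p: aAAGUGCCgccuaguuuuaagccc
miR-291b-3p: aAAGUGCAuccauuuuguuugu
miR-290a-5p: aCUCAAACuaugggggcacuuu
miR-292a-5p: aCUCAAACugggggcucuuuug
miR-293-5p: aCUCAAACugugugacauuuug
The 3p arms of miR-291a, miR-294 and miR-295 share the seed AAGUGCU, and those of miR-290a and miR-291b have the seeds AAGUGCC and AAGUGCA. MicroRNAs with the seed AAGUGCU are known to promote the fast cell cycle of mESCs. The 5p arms of miR-290a, miR-292a and miR-293 share the seed CUCAAAC. Of the microRNA genes in the table, 3 others lay in domains, Mir8112 at Krcc1, Mir1894 at Mrps18b and Ppp1r10, and Mir5121 at Rpl13a.

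Promoters of 4 domain genes are shown because H3K4me3 at their starts is described below. Each run covers 250 bases before to 50 bases after the start (RefSeq, GRCm38.p6, on the gene's strand), with motif matches in capitals.
Nanog (chr6:122707239-122707538, plus strand): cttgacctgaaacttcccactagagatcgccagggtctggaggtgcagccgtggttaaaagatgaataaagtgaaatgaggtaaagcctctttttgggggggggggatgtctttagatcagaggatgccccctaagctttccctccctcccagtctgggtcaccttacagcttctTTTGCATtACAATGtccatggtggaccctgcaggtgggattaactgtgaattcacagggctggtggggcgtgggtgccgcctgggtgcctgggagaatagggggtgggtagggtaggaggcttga
Sox2 (chr3:34649745-34650044, plus strand): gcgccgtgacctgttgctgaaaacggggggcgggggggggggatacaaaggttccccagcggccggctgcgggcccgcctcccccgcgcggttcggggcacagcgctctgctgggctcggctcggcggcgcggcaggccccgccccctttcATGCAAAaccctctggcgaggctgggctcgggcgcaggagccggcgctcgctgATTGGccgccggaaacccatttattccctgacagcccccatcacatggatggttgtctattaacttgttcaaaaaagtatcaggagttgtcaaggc
Klf4 (chr4:55532426-55532725, minus strand): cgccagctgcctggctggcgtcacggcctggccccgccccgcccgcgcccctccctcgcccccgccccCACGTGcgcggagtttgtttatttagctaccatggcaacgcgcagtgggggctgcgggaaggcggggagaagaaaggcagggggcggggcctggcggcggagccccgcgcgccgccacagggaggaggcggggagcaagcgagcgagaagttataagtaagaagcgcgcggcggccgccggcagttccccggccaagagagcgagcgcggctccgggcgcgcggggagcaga
Bcat1 (chr6:145076108-145076407, minus strand): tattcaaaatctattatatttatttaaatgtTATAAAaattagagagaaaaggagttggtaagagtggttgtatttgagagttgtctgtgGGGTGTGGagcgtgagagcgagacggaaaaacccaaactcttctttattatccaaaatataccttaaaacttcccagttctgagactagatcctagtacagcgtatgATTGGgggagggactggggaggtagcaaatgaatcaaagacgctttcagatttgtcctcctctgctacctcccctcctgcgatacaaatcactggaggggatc
In the Nanog window the capitals mark TTTGCAT, the core of the octamer to which OCT4 binds, at base -75 from the start and ACAATG, the core of the SOX motif, at base -67, separated by 1 base. In the Sox2 window they mark the octamer core and a CCAAT box, both on the other strand, and in the Klf4 window the E-box CACGTG. In the Bcat1 window they mark the letters of a TATA box (TATAAA), as far upstream as base -219. On the other strand they mark the KLF motif CCACACCC and a CCAAT box there. The table held 170 starts of 138 protein-coding genes inside domains. On either strand the octamer core stood in 6.47% of these windows, against 3.09% of 1196 windows in narrower shared regions and 4.23% of all 21263 windows. The SOX core stood in 8.82% of domain windows, 7.36% of narrower ones and 11.0% of all windows, and the cores overlap the longer octamer ATGCAAAT and SOX motif ACAATGG that were also searched. The longer octamer was in 2.35% of domain windows, 1.76% of narrower ones and 1.66% of all. A TATA box was in 10.0%, 7.02% and 12.6% of these windows in the same order, the letters CCAAT in 37.6%, 32.1% and 38.2%, the KLF motif in 2.94%, 3.26% and 3.63%, and the E-box in 7.65%, 13.1% and 7.84%. Domain windows had a median GC content of 61.3% and 24 CpGs, narrower ones 64% and 26.5 CpGs, and all windows 56.3% and 13 CpGs.

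The 699 domains spanned 4.70 Mb, with a median length of 5965 bp and a longest of 21882 bp. Their median of called bases was 4428 and 4468 in the CKO lists and 4466 and 4338 in the Control lists, and the groups overlapped. They held 984 and 969 peaks in the CKO lists and 1015 and 1014 in the Control lists, which is 6.44% and 6.44% of the CKO peaks and 6.53% and 7.5% of the Control peaks. By bases they took a much larger part of each list, 22.6% and 22.9% in CKO cells and 23.2% and 26.0% in Control cells. A domain was 1 unbroken peak in 67.4% and 68.5% of cases in the CKO lists and in 65.5% and 65.2% in the Control lists. At 3000 or more called bases in every single list there were 436 domains, at a mean of 5000 or more 246, and at a mean of 10000 or more 33.

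The domains lay mostly away from gene starts. Only 154 of 699 (22.0%) held the start of a protein-coding gene, where either end of a gene with no annotated start counted as one. Some of these may thus hold only the far end of a gene. Among named genes, 134 had an annotated start in a domain and 35 had only such an end there. Another 255 domains (36.5%) touched a gene without holding a start, named inside a gene below, even where they only partly overlapped it. The other 290 (41.5%) lay between genes. Of the narrower shared regions, 47.8% held a start, 25.5% lay inside a gene and 26.7% between genes. Domains without a start lay a median of 20407 bp from the nearest one. A named protein-coding gene was touched by 401 domains, which together touched 413 genes. In the 95 domains with exactly 1 annotated start, the median stretch upstream of it was 3127 bp and the median stretch downstream 2439 bp, and 41.1% extended farther downstream than upstream. Of 645 narrower shared regions with 1 start, 72.2% extended farther downstream. Width is part of the rule, and these shares are descriptions.

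The 20 widest domains comprised well-known regulators of mESCs and genes of general cell function. After the miR-290 domain came an intergenic domain 9633 bp from Cd9, a tetraspanin of the cell surface, and one 4755 bp from Gabrp, a subunit of the GABA-A receptor. Domains at Mcl1, an anti-apoptotic BCL2 family protein, at Etv5, an ETS factor downstream of FGF and ERK, and near Kat6b, a histone acetyltransferase, followed. Others, in order of width, were at Myo10, a myosin of filopodia, near Ncoa3, a nuclear receptor coactivator, near Epha2, an ephrin receptor, at Jam2, a junctional adhesion molecule, at Tmem51, at Mapt, which encodes tau, and near Tet1, a dioxygenase that oxidises 5-methylcytosine. The list closed with the domains near Cct8l1, at Ubxn2a and Atad2b, near Zbtb44, at Arih2 and Slc25a20, near Tnfsfm13 and near Klf4. The domain near Ncoa3 covered Platr29, a transcript named for its association with pluripotency.

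Among these 20, both CKO lists were wider in 7 domains and narrower in 1, at Tmem51. Over all 699 domains the shares were 23.7% wider and 16.5% narrower, beside 27.5% and 12.5% of the 2913 regions called in all 4 lists. In the 20 widest the log2 ratios of CKO over Control lay between -0.28 and 0.47. The miR-290 domain had 21106 and 21562 called H3K27ac bases in CKO lists and 20743 and 20813 in Control lists, and 92.1% of its bases were called in all 4 lists. Both CKO values were higher, the lower of them by less than the gap between the CKO replicates. At Mcl1 the values were 16979 and 16665 in CKO lists and 17160 and 15987 in Control lists, which overlap. The domain near Klf4, 45044 bp downstream of the gene, had 12241 and 11012 bases in CKO lists and 11186 and 11879 in Control lists, which overlap too. Near Ncoa3 the replicates themselves stood apart, with 10674 and 15063 bases in CKO lists and 14056 and 16225 in Control lists.

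**Figure D1:**
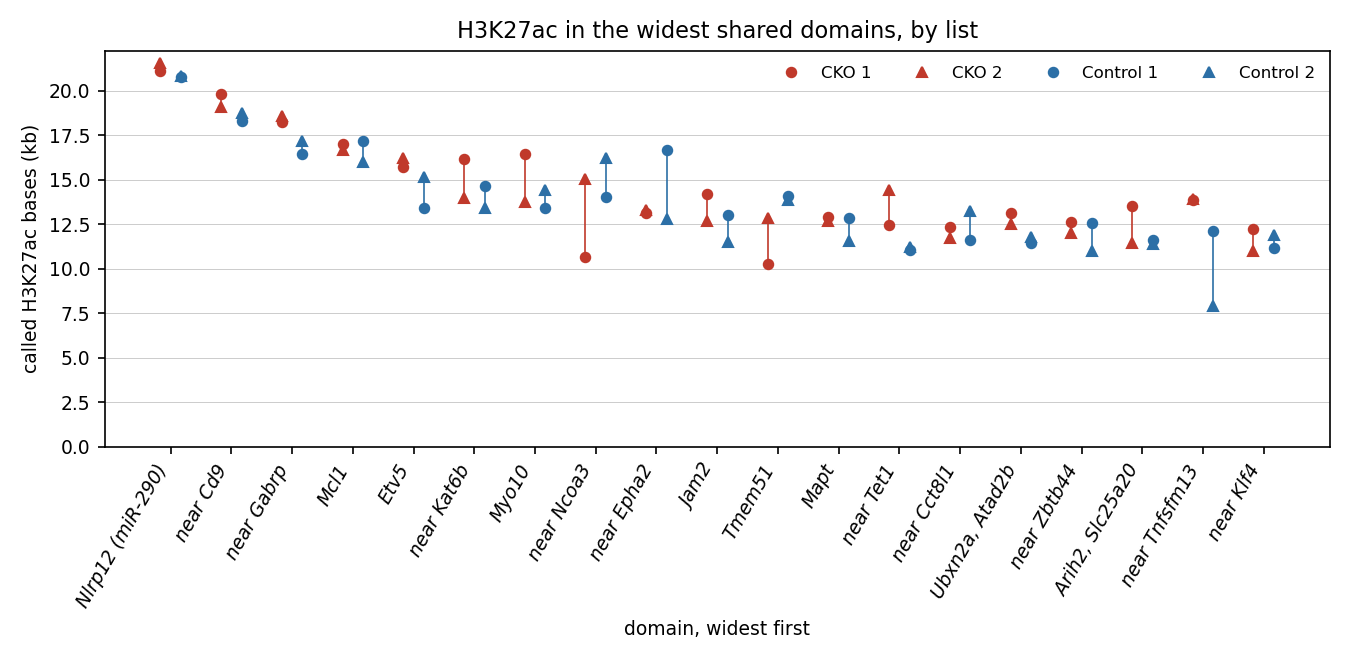
Called H3K27ac bases (kb, vertical axis) in the widest domains, ordered by mean width; 1 of the 20 is not shown. Points are single lists, joined within a genotype: CKO in red on the left, Control in blue on the right, circles for list 1 and triangles for list 2. The genotypes lie close together throughout, with log2 ratios between -0.28 and 0.47, and the lowest point is Control list 2 near Tnfsfm13 at 7919 bases.

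Genes of naive and core pluripotency were frequent among the domains. Of the 25 listed genes, 12 (48%) were touched by a domain, against 655 of 19937 named protein-coding genes (3.29%) that were touched by a domain or nearest to one touching no gene. The 12 were Pou5f1, Sox2, Nanog, Klf2, Klf4, Esrrb, Tfcp2l1, Tbx3, Sall4, Tdgf1, Dppa5a and Fgf4, and 5 further domains lay next to or inside the same genes. Several of these genes are textbook super-enhancer genes, and the list was chosen with earlier results of these data known. The list is thus no independent evidence. Summed over these 17 domains, called H3K27ac came to 108213 and 108930 bases in CKO lists and 108958 and 104024 in Control lists, and the groups overlapped. In 4 of the 17 both CKO lists were wider than both Control lists and in 4 narrower, with a median log2 ratio of 0.01 and a range of -0.72 to 0.99. Over all domains, with the shares given above, these counts were 166 and 115 of 699.

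The core factors had their domains at the start or in the gene. At Pou5f1, which encodes OCT4, the domain (chr17:35497476-35507415) had 6439 and 9027 H3K27ac bases in CKO lists and 6869 and 5999 in Control lists, which overlap. It reached 8556 bp upstream of the start and 1383 bp downstream. At Nanog (chr6:122699998-122708893) the values were 8423 and 8321 bases in CKO lists and 8081 and 6431 in Control lists. Both CKO lists were wider there, with a log2 ratio of 0.21, and the lower Control value came from list 2, whose H3K27ac ended short of the start. This domain too lay mostly upstream, 7491 bp against 1404 bp downstream of the first annotated start.

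Sox2, the partner of OCT4, had 2 domains. The one at the gene (chr3:34648348-34653872), which also touched the non-coding Sox2ot, had 4504 and 3768 bases in CKO lists and 3566 and 3518 in Control lists. Both CKO lists were wider, with a log2 ratio of 0.22. The other, 101891 bp downstream at chr3:34754352-34763375, had 6311 and 8460 bases in CKO lists and 8309 and 6541 in Control lists, and the genotypes overlapped. A distal enhancer cluster downstream of Sox2 is known to drive the gene in mESCs.

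Klf4, a KLF factor of the naive state, likewise had a domain at the gene and the distant one given above. At the gene (chr4:55529397-55533753) H3K27ac covered 4011 and 4357 bases in CKO lists and 2629 and 1582 in Control lists. Both CKO lists were wider, with a log2 ratio of 0.99, the highest of the 17 pluripotency domains. Klf2, its close relative, went the other way: 6104 and 4840 bases in CKO lists and 8235 and 6843 in Control lists, a log2 ratio of -0.46 with no overlap. Esrrb, an orphan nuclear receptor, had 2 domains 549 bp apart inside the gene. The wider had 7226 and 6978 bases in CKO lists and 7428 and 6377 in Control lists, and the other 3499 and 3144 in CKO lists and 3833 and 3222 in Control lists. Neither separated the genotypes.

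The other 6 listed genes were singled out after their values were seen. Both CKO lists were wider at Tbx3, a T-box factor, with 7438 and 5390 bases in CKO lists and 4129 and 3977 in Control lists (log2 ratio 0.66). They were narrower at Tdgf1, the Nodal co-receptor, with 7148 and 3935 bases in CKO lists and 7299 and 8666 in Control lists (log2 ratio -0.53). Dppa5a, an RNA-binding protein of pluripotent cells, had a domain with Ooep of 10742 and 10939 bases in CKO lists and 11205 and 11615 in Control lists. Next to it, 327 bp from the gene, a second had 5028 and 2561 bases in CKO lists and 6854 and 5642 in Control lists, with a log2 ratio of -0.72. Both CKO lists were the narrower ones in these Dppa5a domains. At Tfcp2l1, Sall4 and Fgf4 the genotypes overlapped. Fgf4, the growth factor that drives exit from the naive state through ERK, had the least even replicates, with 4290 and 7520 bases in CKO lists and 1259 and 5839 in Control lists.

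**Figure D2:**
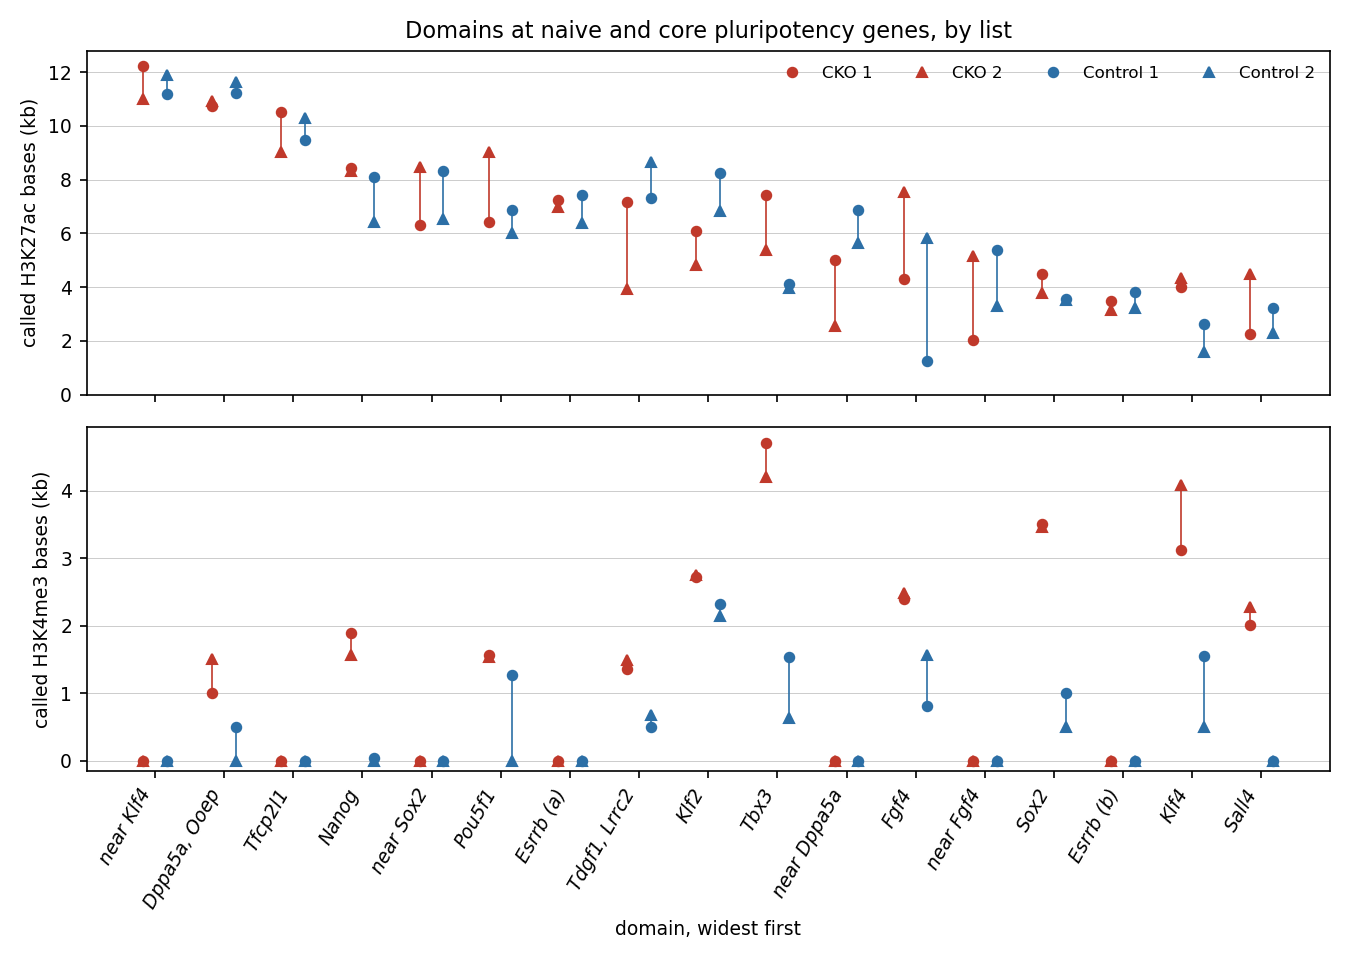
Called bases (kb) of H3K27ac (upper panel) and H3K4me3 (lower panel) in the 17 domains that touched, or lay nearest to, a naive or core pluripotency gene, widest first. Points are single lists, CKO in red on the left and Control in blue on the right, circles for list 1 and triangles for list 2. H3K27ac is wider in both CKO lists in 4 domains and narrower in both in 4, while every domain shown with H3K4me3 has both CKO values above both Control values.

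Other listed groups, also chosen with earlier results of these data known, held fewer domain genes. Their counts, here and in the paragraphs on chromatin and m6A genes, stand beside the 3.29% of all named protein-coding genes. Of 10 LIF and STAT3 targets, 4 had a domain, which were Klf4, Tfcp2l1, the kinase Pim3 and, 21048 bp away, the kinase Pim1. The domain near Pim1 had 4778 and 3721 bases in CKO lists and 2321 and 1759 in Control lists, a log2 ratio of 1.06 with no overlap. Of 13 feedback genes and targets of MEK and ERK, 3 had one, Etv5 and the pathway inhibitors Spry2 and Spred2. Etv5 was wider in both CKO lists, with 15724 and 16242 bases in CKO lists and 13433 and 15175 in Control lists. Etv5 was also the only one of 14 formative and primed genes with a domain. Nodal, a TGF-beta family ligand, and Smad7, an inhibitor of that pathway, were the 2 of 11 Nodal and BMP targets with one. At Nodal H3K27ac covered 7707 and 7492 bases in CKO lists and 7210 and 4372 in Control lists, and the low value was that of Control list 2. None of 12 Wnt and GSK3 targets and none of 7 Myc family members had a domain, which in groups this small is near the share over all genes.

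Chromatin genes with domains included writers, erasers and readers. Of 9 genes of DNA methylation and demethylation, Tet1 and Tet2 had 2 domains each. The domain 2556 bp from Tet1 had 12449 and 14449 bases in CKO lists and 11037 and 11234 in Control lists, and the one inside Tet1 had 3856 and 3431 in CKO lists and 3018 and 2844 in Control lists. Both were wider in both CKO lists. In Tet2 the genotypes overlapped in 1 domain, and the other had 6110 and 5678 bases in CKO lists and 4342 and 3439 in Control lists.

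Of 22 Polycomb genes and H3K27 demethylases 3 had domains, Jarid2, Mtf2 and Rybp, all of them known partners of Polycomb complexes. At the start of Jarid2, a PRC2 subunit, H3K27ac covered 6087 and 7547 bases in CKO lists and 5717 and 2158 in Control lists, and 18623 bp from the gene a second domain had 7072 and 8665 in CKO lists and 5493 and 6355 in Control lists. Both CKO lists were wider in each. The domain nearest Rybp, 88165 bp away, was narrower in both, with 5753 and 3639 bases in CKO lists and 5868 and 6063 in Control lists. Among 14 acetylation writers, readers and erasers, 4 had a domain: the acetyltransferase genes Kat2b and Kat6b and the bromodomain genes Brd2 and Brd3. Only Brd3 separated the genotypes, with 2852 and 4210 bases in CKO lists and 2213 and 2765 in Control lists.

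Among 18 genes of the m6A machinery 2 had a domain. Inside Igf2bp1, an RNA-binding protein described as a reader of m6A, H3K27ac covered 6421 and 2311 bases in CKO lists and 1499 and 4209 in Control lists, and the replicates of each genotype differed more than the genotypes. The domain 4636 bp from Wtap, a subunit of the m6A writer, had 3091 and 3253 bases in CKO lists and 3588 and 4017 in Control lists, narrower in both CKO lists. Of 20 housekeeping genes 2 had a domain, among them Rpl13a, a ribosomal protein gene. Its values were 2151 and 3868 bases in CKO lists and 3265 and 2747 in Control lists, which overlap. None of the 8 fibroblast, 6 trophectoderm and 6 primitive endoderm markers had a domain, which in groups this small is near the 3.29% of all named genes.

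Across all domains the H3K27ac width in CKO lists stayed near that in Control lists. The median log2 ratio of mean called bases, CKO over Control, was 0.03, a 1.02-fold ratio, and 90% of domains lay between -0.51 and 0.73. The narrower shared regions had a median log2 ratio of 0.20, or 1.15-fold. In domains the median absolute log2 difference was 0.240 between the CKO replicates, 0.264 between the Control replicates and 0.270 to 0.290 between single lists of different genotype. In narrower shared regions these were 0.417, 0.471 and 0.477 to 0.542. A ratio past 1.5-fold in either direction was seen in 88 domains (12.6%), against 762 narrower regions (34.4%). Of the bases of a domain, a median of 51.4% was called in all 4 lists, compared with 31.6% in narrower regions. Domains were chosen by mean width over these same lists. A shift of the same number of bases also gives a smaller ratio in a wider region. These comparisons therefore do not show that domains are steadier than narrower regions.

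The order of domain widths was similar in the 4 lists. Spearman's correlation over the 699 domains was 0.68 between the CKO lists, 0.66 between the Control lists and 0.57 to 0.64 between lists of different genotype. These are descriptions over regions chosen on the same lists, and so are no independent evidence of agreement.

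**Figure D3:**
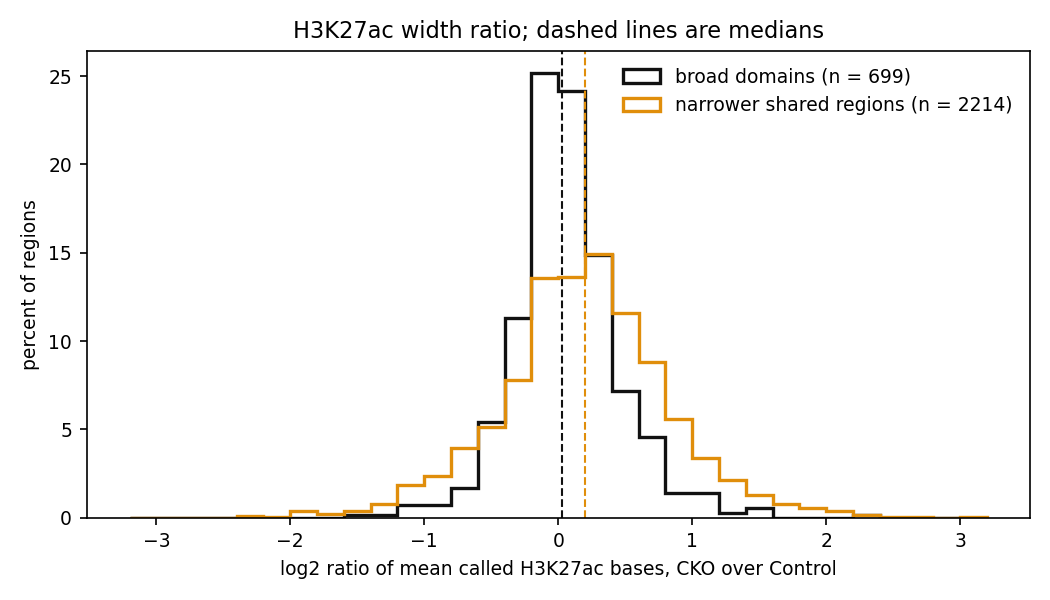
Distribution of the log2 ratio of mean called H3K27ac bases, CKO over Control (horizontal axis), in percent of regions (vertical axis), for the 699 broad domains (black) and the 2214 narrower shared regions (orange). Dashed lines are the medians of 0.03 and 0.20, and the black curve is the narrower one, which the choice of domains by width favours.

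The share of wider calls went with the place of a domain. Among domains at gene starts both CKO lists were wider in 54 of 154 (35.1%) and narrower in 15 (9.74%), while between genes they were wider in 55 of 290 (19.0%) and narrower in 59 (20.3%). The narrower shared regions split alike, with 36.2% wider and 5.67% narrower at starts and 19.8% wider and 16.2% narrower between genes. Inside genes the shares wider in both CKO lists were 22.4% for domains and 23.7% for narrower regions.

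The domain with the largest ratio lay at the start of Bcat1, the cytosolic branched-chain aminotransferase (chr6:145069378-145080894). H3K27ac covered 7598 and 10764 bases there in CKO lists and 3412 and 501 in Control lists, a log2 ratio of 2.23. It was 1 and 2 peaks in CKO lists and 4 and 1 short peaks in Control lists, and no base of it was called in all 4 lists. A second domain farther inside the gene (chr6:145059877-145067938) had 6202 and 5561 bases in CKO lists and 2188 and 1788 in Control lists, a log2 ratio of 1.56. Another domain, between Bcat1 and Lrmp and 10181 bp from the first, had 4597 and 3919 bases in CKO lists and 3841 and 4957 in Control lists, which overlap.

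The next largest ratios were at Mras, a RAS-related GTPase, with 4233 and 9246 bases in CKO lists and 2190 and 2398 in Control lists, at Dcbld1 with 3281 and 7306 in CKO lists and 1002 and 2762 in Control lists, and at Ahnak, a large scaffold protein, with 8477 and 6924 in CKO lists and 1766 and 4022 in Control lists. Their log2 ratios were 1.55, 1.49 and 1.41. All of these fell in the class inside genes and had no H3K4me3 in any list, apart from Bcat1.

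The largest ratios the other way were near Rbmxl2, near Epb41l4a, at Atp2a2, at Zfp638 and near Rimbp3, with log2 ratios of -1.55, -1.34, -1.17, -1.04 and -1.04. At Atp2a2, the calcium pump of the endoplasmic reticulum, H3K27ac covered 828 and 3628 bases in CKO lists and 4630 and 5387 in Control lists. At Zfp638 it covered 2853 and 3368 bases in CKO lists and 6153 and 6671 in Control lists, with close replicates on both sides. A domain on chromosome X, 71227 bp from Diaph2, was singled out after its values were seen: it had 4851 and 7626 bases in CKO lists and 9649 and 15245 in Control lists. The genotypes did not overlap, and within each the replicates differed by more than 1.5-fold.

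H3K4me3, which the rule did not use, touched more domains in CKO lists than in Control lists. The share was 25.2% and 26.5% in CKO lists and 13.2% and 13.2% in Control lists, a mean of 25.8% ± 0.910 against 13.2% ± 0 (SD, n = 2 each). The difference of 12.7 percentage points was larger than the spread between replicates, with an exact two-sided permutation p of 0.333, the smallest that 2 against 2 lists can give. Called H3K4me3 in domains came to 0.303 and 0.301 Mb in CKO lists and 0.0900 and 0.0876 Mb in Control lists, a 3.40-fold ratio or 1.77 on the log2 scale (exact permutation p = 0.333). Where H3K4me3 was called, it covered a median of 1508 and 1415 bases of a domain in CKO lists and 835.5 and 805.5 in Control lists. In all these values the genotypes did not overlap.

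The Control lists of H3K4me3 were much shorter as a whole, as given above. With each H3K4me3 list reduced to as many of its widest peaks as the shortest list holds, the difference in the share of domains was 3.86 points in place of 12.7. Domains took 3.72% and 3.81% of the called H3K4me3 bases of CKO lists and 5.06% and 5.60% of those of Control lists. Both CKO lists had more H3K4me3 bases than both Control lists in 147 domains (21.0%), beside 37.3% of all regions called in the 4 H3K27ac lists, and both had fewer in 0 domains, beside 0.0343%. H3K4me3 was called in both CKO lists and neither Control list in 52 domains, or 7.44% beside a background of 13.0%. It was called in all 4 lists in 57 domains (8.15%, background 12.0%) and in none in 478 domains (68.4%, background 52.7%).

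Set against narrower shared regions, domains carried H3K4me3 less often in each of the 4 H3K4me3 lists. The share in narrower regions was 48.6% and 47.7% in CKO lists and 22.2% and 23.4% in Control lists. Domains minus narrower regions averaged -16.0 percentage points over the lists, lower in 4 of 4, with an exact two-sided sign-flip permutation p of 0.125, the smallest that 4 lists can give. H3K4me3 covered 6.44% and 6.41% of domain bases in CKO lists and 1.92% and 1.86% in Control lists. This was on average 13.1 percentage points less than of narrower regions (exact sign-flip p = 0.125). Cover is a share of region length, and domains were chosen for width. A lower cover of the longer regions thus follows in part from the rule, and the test cannot separate that part. Within a class of place the differences were smaller. At gene starts they were -4.63 and -3.31 points in CKO lists and 4.34 and 2.41 points in Control lists, of opposite sign in the genotypes, with an average of -0.30 points (exact sign-flip p = 0.875). The average was -1.32 points inside genes (p = 0.25, exact) and -0.67 points between genes (p = 0.375, exact).

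H3K4me3 in domains was mainly found at starts. Among the 154 domains with a gene start, as defined above, it was called in 85.1% and 85.1% in CKO lists and in 45.5% and 47.4% in Control lists. With each list cut to its 2431 widest peaks, an alternative chosen after the data were seen, the shares were 67.5% and 64.3% in CKO lists and 43.5% and 47.4% in Control lists, a difference of 20.5 points in place of 38.6. Inside genes the shares were 9.02% and 11.8% in CKO lists and 5.88% and 4.71% in Control lists, and between genes 7.59% and 8.28% in CKO lists and 2.41% and 2.41% in Control lists. Of the H3K4me3 peaks that touched a domain, 71.1% and 66.5% in CKO lists and 65.3% and 71.9% in Control lists lay within 1 kb of a start so defined.

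**Figure D4:**
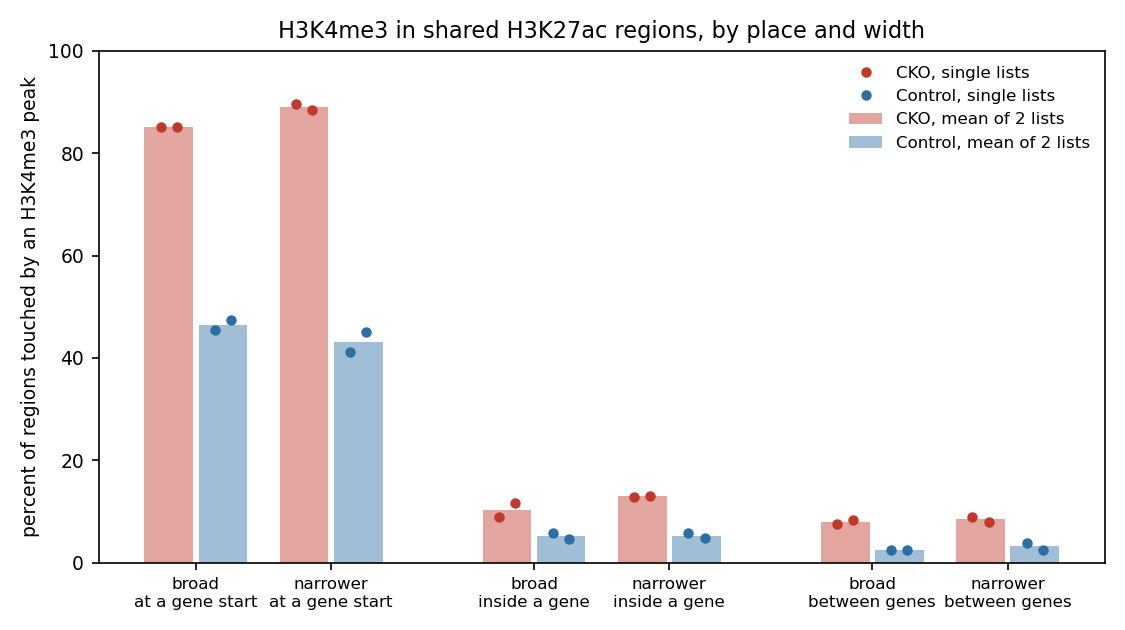
Percent of shared H3K27ac regions touched by an H3K4me3 peak (vertical axis, from 0), for broad domains and narrower shared regions at gene starts, inside genes and between genes. Inside genes means touching a gene without holding a start. Bars are means of 2 lists and points single lists, CKO in red on the left and Control in blue on the right. In each of the 6 classes both CKO points lie above both Control points, and at gene starts the bar of broad domains is the lower one in CKO and the higher one in Control.

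The difference in share was larger in short windows at the start of transcription than over whole domains at starts. Control H3K4me3 calls were narrower, as given above, so they miss a short window more easily. Of the 170 promoter windows of 300 bases inside domains, H3K4me3 touched 72.4% and 71.2% in CKO lists and 18.2% and 20.6% in Control lists. With the same cut in list length these became 63.5% and 64.1% in CKO lists and 17.6% and 20.6% in Control lists. Both differences have an exact permutation p of 0.333. The cut keeps the widest peaks of each list, so it does not even out peak width. Whether the genotypes differ more at the start than elsewhere in a domain cannot be told from these shares. H3K27ac itself touched 95.9% and 92.9% of the windows in CKO lists and 91.8% and 83.5% in Control lists.

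The Nanog window printed above gives the values at 1 gene. In its 300 bases H3K4me3 covered 45 and 206 bases in CKO lists and 0 and 0 in Control lists. In the domain as a whole it covered 1901 and 1561 bases in CKO lists and 48 and 0 in Control lists. The Sox2 window had 81 and 300 bases in CKO lists and 0 and 0 in Control lists, although H3K4me3 was called elsewhere in the domain in every list, with 3501 and 3468 bases in CKO lists and 1002 and 501 in Control lists. The Klf4 window had 92 and 300 bases in CKO lists and 36 and 0 in Control lists, and the Bcat1 window 300 and 29 in CKO lists and 0 and 0 in Control lists. In the Klf4 domain as a whole H3K4me3 covered 3121 and 4090 bases in CKO lists and 1549 and 501 in Control lists. At Pou5f1 it covered 1570 and 1535 bases in CKO lists and 1266 and 0 in Control lists, so that Control list 1 came close to the CKO lists and Control list 2 had no call.

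Of the 17 pluripotency domains, 6 had H3K4me3 in all 4 lists, 1, at Sall4, in the CKO lists only, and 7 in none. Klf2 stood out by its even values, with 2719 and 2756 bases in CKO lists and 2316 and 2150 in Control lists. The Jarid2 domain at the start had 3001 and 4121 H3K4me3 bases in CKO lists and none in either Control list. At Spry2, a feedback inhibitor of ERK signalling, the genotypes overlapped, with 2950 and 4263 bases in CKO lists and 2900 and 3044 in Control lists.

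The most H3K4me3 in CKO lists was at the domain of Arih2, a ubiquitin ligase, and Slc25a20, the carnitine carrier of mitochondria. There it covered 6490 and 5674 bases in CKO lists and 1280 and 694 in Control lists, while H3K27ac covered 13505 and 11432 bases in CKO lists and 11629 and 11396 in Control lists. Next came Brd2 with H2-DMa, with 4675 and 4705 H3K4me3 bases in CKO lists and 2469 and 1444 in Control lists, and Tbx3 with 4709 and 4209 in CKO lists and 1542 and 628 in Control lists. At Ubtf, a factor of RNA polymerase I, it covered 3783 and 4216 bases in CKO lists and 0 and 2040 in Control lists. Hnrnpa2b1 with Cbx3, which encodes the heterochromatin protein HP1-gamma, had 3900 and 3571 bases in CKO lists and 0 and 501 in Control lists. These 5 were picked for their H3K4me3 in CKO lists, so their direction is a description.

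The widest domains with no H3K4me3 in any list were those at Etv5, near Ncoa3, at Tmem51, near Tet1 and near Zbtb44. The domains downstream of Sox2 and Klf4 and those inside Esrrb and Tfcp2l1 had none either. At the miR-290 domain, which holds no start of a protein-coding gene, H3K4me3 was called in every list, with 2965 and 2833 bases in CKO lists and 1521 and 1978 in Control lists. Counted from the start of the domain, it ran from base 18444 to 21408 and from 18377 to 21209 of the domain in CKO lists, and from 18503 to 20023 and from 18754 to 20731 in Control lists. The mature arms shown above lie between bases 19450 and 21626 by their first base, so the CKO peaks reached farther into the cluster. The 3p arms of miR-294 and miR-295 start at bases 21502 and 21626, past the H3K4me3 of all 4 lists, and the 5p arm of miR-293, at base 21167, starts past that of both Control lists.

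**Figure D5:**
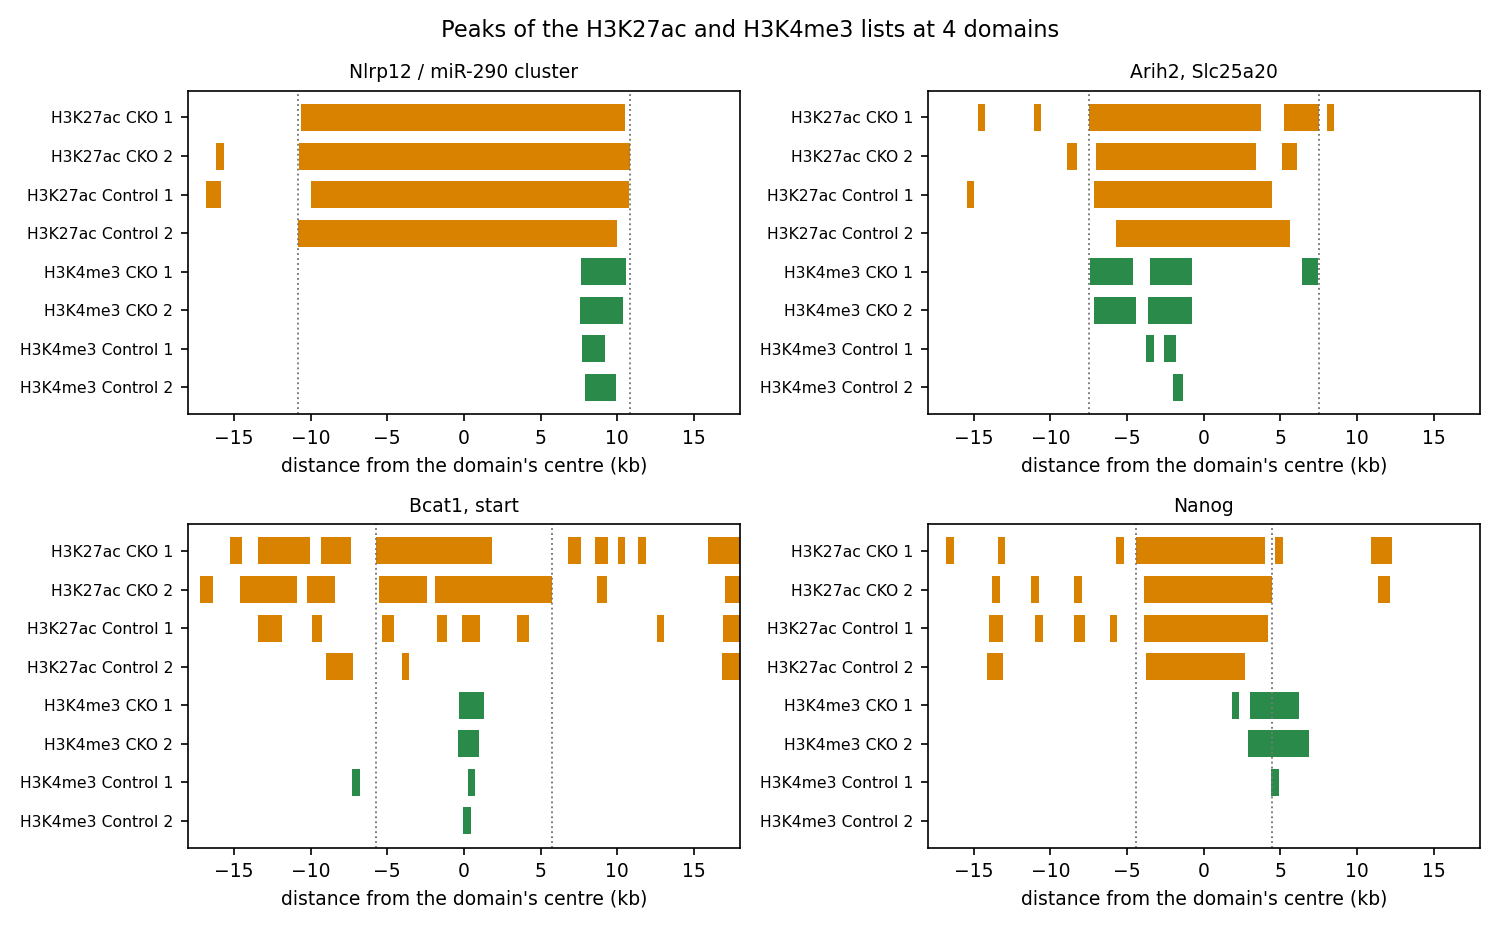
Peaks of the H3K27ac lists (orange) and H3K4me3 lists (green) at 4 domains, by distance from the domain's centre (kb); each row is a list, CKO above Control, and dotted lines are the domain's ends. The miR-290 domain is 1 unbroken H3K27ac peak in all 4 lists with H3K4me3 at its right end, the Bcat1 domain holds only short peaks in Control, and at Nanog H3K4me3 crosses the right end of the domain.

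H3K27me3 was not found in the domains. Its peaks touched 0 of 699 domains in the CKO lists and 0 of 699 in the Control lists, which allows a share of up to 0.429% per list, for counting error only (3 domains of 699). The test over the lists has an exact permutation p of 1. As background, 99.9% of the 2913 regions called in all 4 H3K27ac lists had no H3K27me3 in any list. Of the 2214 narrower shared regions 0 and 2 were touched in CKO lists and 0 and 1 in Control lists, and the cover of domains minus narrower regions averaged -0.00460 percentage points (exact sign-flip p = 0.5). H3K27me3 peaks near these domains but outside them were not counted.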

How the data were processed

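The deposited files are BED lists of peak positions, 1 per library, made by the authors, so replicates were called separately. They give positions (chromosome, start, end) and no heights, read numbers or p-values, and the narrowest peak of every list spans 501 bp. The build was mm10, with HOMER, SAMtools, Bowtie2 2.4.1, Trimmomatic 0.38 and CASAVA as tools, per the submitters' processing notes. For the peak caller, its settings, and any use of the inputs or the spike-in, the record is silent (not given in the sources used here). Spike-in chromatin was added to the formaldehyde-fixed samples, per the labels' protocols. The 4 input libraries and the Mettl3 knockout were not analysed here.

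Overlapping or touching peaks were merged with Python 3.11.15, numpy 2.4.6 and pandas 2.3.3, and an overlap needed 1 bp. Genes came from a RefSeq table of GRCm38.p6, the assembly of mm10, with starts for 17492 of 21900 protein-coding genes; for the others both ends of the gene were used. Since the table gives spans only, exons and introns were not told apart. Named are the 20 widest domains, the 5 largest width ratios each way among domains whose genotypes did not overlap, the 5 with most and the 5 widest with no H3K4me3, the 3 on either side of the threshold, and up to 6 members of each of 15 gene lists. The results of some named items are not reported here. The members and lists were chosen with earlier results of these data known. The octamer and SOX cores were added to the 8 planned motifs after promoters had been read. Shares and bases were compared over lists by exact two-sided permutation tests, and domains with narrower regions by sign-flip tests. Further settings changed the threshold, the merging, the smallest peaks, the list lengths, the overlap and the replicates used. On simulated data with 200 planted domains among 3000 regions, 200 were found, and 50 of 50 planted H3K4me3 calls. Planted domains were above the threshold in every list, other regions were below it, and all lay far apart. The simulation thus checks the counting only, not regions near the threshold or near one another. Lists were not paired by replicate number, apart from the replicate block given below.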

Additional observations from a re-analysis of the deposited data

How the results depend on the processing

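The number of domains, 699, became 1212 at a mean of 2000 bases, 246 at 5000, 436 with the threshold on the smallest list and 1121 with peaks up to 12.5 kb apart stitched, and it was 782 with peaks up to 1000 bp apart merged and 673 without peaks of the minimum width. The median log2 width ratio, 0.03, was 0.0109 with the threshold on the smallest list, 0.048 at a mean of 2000 bases and 0.0745 with stitching, and 0.0247 to 0.0566 with each list left out in turn. The difference in the share of domains with H3K4me3 kept its sign in each alternative run, from 3.86 points at equal list length to 29.1 with stitching, and 12.0 to 13.3 with a list left out. That of H3K4me3 bases ran from 1.52 to 2.00 on the log2 scale. The share with H3K27me3, 0 in the main setting, differed by -0.0639 points with peaks up to 1000 bp apart merged and by 2.10 points with stitching, where domains span unacetylated sequence. The cover of H3K4me3, a share of region length, stayed lower in domains than in narrower regions, from -14.2 to -1.41 points, the last with stitching. With a replicate block (lists paired by number) the width ratio was 0.04 and the H3K4me3 differences were 12.7 points and 1.77 (log2), with a smallest possible p of 0.5. Deviations of same-numbered lists correlated at 0.05 for H3K27ac and -0.03 for H3K4me3. These values show no pairing by number in the called widths. They cannot tell whether same-numbered lists shared a culture or batch. Most of these settings, among them the threshold, stitching and equal list length, moved at least 1 value by over 1.5 times. The small width ratio moved that far also with some lists left out. The causes were not tested. Depth per list is unknown, so no threshold could be matched to reads.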

Other observations

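Some domains lay side by side. Within 12.5 kb of one another, 111 of the 699 domains formed 51 groups, of which 6 held 3 or more domains and none more than 4. Grouping was not counted for narrower shared regions, so it cannot be called particular to domains. Groups of 4 lay at Trip12 and Fbxo36 on chromosome 1, at H2-M5 in the major histocompatibility region of chromosome 17, and at Clmp and Hspa8 on chromosome 9. The group of Bcat1 held 3 domains over 37057 bp, and the pairs in Esrrb, Tet2, Mapt and Myo10 each lay within 1 gene. Chromosome 7 had the most domains, 61, which is 31.4% of its 194 regions called in all 4 lists, and chromosome X had 22 (17.3% of 127). Over all chromosomes, 699 of 2913 such regions were domains. These groups were noticed after their values were seen.

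Long non-coding RNA genes were touched by several domains. Of 33 domains that touched a named non-coding gene of any kind, 20 touched no named protein-coding gene. These non-coding genes include microRNA genes and pseudogenes besides long non-coding RNA genes. The same count was not made for narrower shared regions. The domain at Frmd8 covered Neat1, the scaffold RNA of paraspeckles, with 8159 and 7586 H3K27ac bases in CKO lists and 6843 and 6606 in Control lists, and 2522 and 2514 H3K4me3 bases in CKO lists and 501 and 1654 in Control lists. The CKO lists were the wider ones for both marks. Lncenc1, a long non-coding RNA of embryonic stem cells, had 5033 and 4955 H3K27ac bases in CKO lists and 5093 and 3297 in Control lists, and H3K4me3 of 2848 and 2684 bases in CKO lists and 501 and 501 in Control lists. Of 4 Platr transcripts, Platr9 was wider in both CKO lists (3832 and 5121 bases in CKO lists, 3270 and 2244 in Control lists), and Platr4 narrower (3523 and 2160 in CKO lists, 3723 and 5845 in Control lists). The domain over Tsix, the antisense partner of Xist, had 3897 and 3126 bases in CKO lists and 3267 and 3826 in Control lists, which overlap.

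At gene starts, the median log2 width ratio of H3K27ac was 0.10 in the 35 domains with H3K4me3 in the CKO lists only, of which both CKO lists were wider in 11 and narrower in 0, and 0.13 in the 50 with H3K4me3 in all 4 lists, of which 15 were wider and 5 narrower. In the 15 domains with no H3K4me3 it was 0.02, and 6 were wider and 3 narrower. In narrower shared regions at starts these medians were 0.40 (289 regions) and 0.24 (266 regions), and 0.25 in the 63 regions with no H3K4me3. The difference between these classes was not tested.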
